A study of Mus musculus with 31 samples.

Results

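EP1 is 1 of 3 classes named EP that the authors assigned to cells of uninjured mouse spinal cord profiled by single-cell ATAC-seq, a method in which a transposase cuts open chromatin and each cut is counted in the cell it came from. It was taken as all cells that carry that name in the deposited cell table, which gave 301 of 1084 cells, or 27.8% of the cells and 12.8% of the cut sites. The other classes were EP2 with 290 cells, EP3 with 163, ACNT1 with 111, ACNT2 with 62, OPC with 67, VEC with 50 and PER with 40. Their abbreviations are kept as the authors wrote them. All cells came from 1 library of non-neuronal cells of C57BL/6 mice, released by tissue digestion and sorted by flow cytometry, and the labels name no transgene, age or number of animals for it. Of 31 samples in the series, 2 more are used here as a separate readout: bulk RNA libraries of ependymal cells from uninjured cord on the same background, made by Smart-seq2. Their titles carry the name Foxj1_tdT, the labels do not describe that allele, and these libraries do not separate EP1 from EP2 and EP3. With 1 library there is no replicate, the classes were assigned by the authors to these same cells, and every comparison below is a description without a test.

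Ependymal cells form the lining of the cord's central canal, where their motile cilia move cerebrospinal fluid. The transcription factor FOXJ1 drives the motile cilium program together with RFX factors, which bind a palindromic sequence called the X-box in front of many cilium genes. In the adult cord these cells divide little until injury, when some of them proliferate and give rise mainly to glia.

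The sequence letters at cilium genes are shown first, because the windows described below lie over them. Tekt4 encodes a tektin, a filament protein of the axoneme, and is 1 of the 3 genes taken as markers of EP1. The 250 bases before its start lie at chr17:25471340-25471589 on the plus strand (GRCm38.p6, from RefSeq) and hold an X-box match, in capitals, that begins 160 bases before the start. The same length of Ccdc153, a coiled-coil gene of ciliated cells and another of the markers, lies at chr9:44240427-44240676 on the plus strand and held no match.
Tekt4: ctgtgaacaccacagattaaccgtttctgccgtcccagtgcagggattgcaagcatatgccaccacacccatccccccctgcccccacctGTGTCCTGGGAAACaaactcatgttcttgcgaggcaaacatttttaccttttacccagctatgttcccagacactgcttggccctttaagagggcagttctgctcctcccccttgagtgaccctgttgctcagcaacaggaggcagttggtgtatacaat
Ccdc153: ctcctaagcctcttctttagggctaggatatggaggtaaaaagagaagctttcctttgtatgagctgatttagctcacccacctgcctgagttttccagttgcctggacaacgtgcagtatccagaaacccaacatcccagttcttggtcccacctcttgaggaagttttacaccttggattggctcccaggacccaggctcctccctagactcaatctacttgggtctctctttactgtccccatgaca

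The X-box letters searched were GTNNCC and GNAAC set 3 bases apart, on both strands, where N is any base. The members of the ciliogenesis, dynein arm and radial spoke lists whose windows were at least 2-fold higher in EP1 than in the classes not named EP and that held the letters before the start were Tekt4 and the 8 genes below, named after their values were seen. Each stretch is written on the gene's strand with the match in capitals. They lie at chr4:34730207-34730247 (minus) for Cfap206, chr16:44394754-44394798 (plus) for Cfap44, chr1:172521093-172521129 (plus) for Cfap45, chr8:110266938-110266976 (plus) for Hydin, chr3:106001537-106001586 (minus) for Pifo, chr1:69826849-69826898 (plus) for Spag16, chr9:15627902-15627951 (minus) for Deup1 and chr13:112987565-112987614 (plus) for Ccno. Pifo has a 2nd match that is not shown.
Cfap206: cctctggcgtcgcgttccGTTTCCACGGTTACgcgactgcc
Cfap44: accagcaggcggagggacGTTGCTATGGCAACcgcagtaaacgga
Cfap45: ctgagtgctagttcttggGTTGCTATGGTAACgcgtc
Hydin: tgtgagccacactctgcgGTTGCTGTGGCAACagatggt
Pifo: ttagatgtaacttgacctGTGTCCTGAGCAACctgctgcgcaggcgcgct
Spag16: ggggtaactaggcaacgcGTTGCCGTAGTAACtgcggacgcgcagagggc
Deup1: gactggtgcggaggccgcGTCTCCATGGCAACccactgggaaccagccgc
Ccno: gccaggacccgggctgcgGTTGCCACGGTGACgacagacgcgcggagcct

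EP1 was the shallow class among the 3 named EP. Its cells had a median of 10137 cut sites in peaks, against 46787.5 in EP2 and 30192 in EP3, so the median EP1 cell held 0.217 times the cut sites of the median EP2 cell. Of the EP1 cells, 50.5% fell below the lower quartile of all cells' cut sites and 3.32% above the upper quartile. The share of a cell's fragments that lay in peaks had a median of 73.4% in EP1, 77.6% in EP2 and 77.3% in EP3. Enrichment at transcription starts, a ratio computed by the authors, had a median of 5.47 in EP1, 5.06 in EP2 and 5.18 in EP3. Levels are therefore given as CPM, the cut sites summed over the cells of a class, scaled to a total of 1000000 in every class, and a level in EP1 rests on 4121205 cut sites, against 15283010 in EP2 and 5478416 in EP3.

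**Figure D1:**
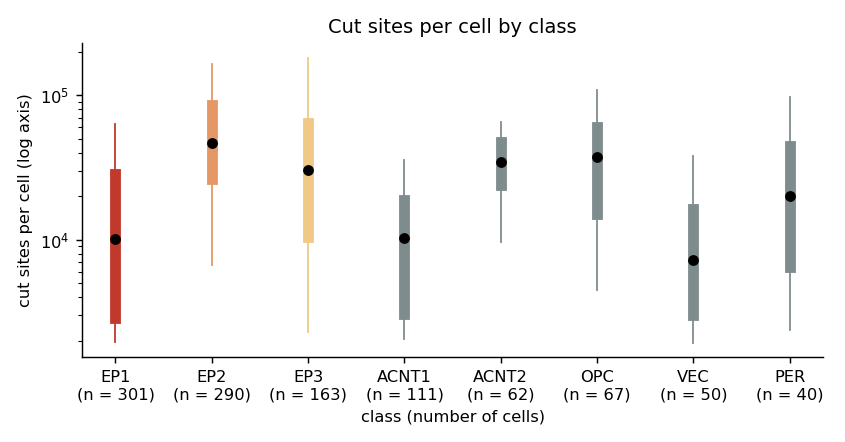
Cut sites per cell (log axis) for each class; the dot is the median, the thick bar runs over the middle 80% of cells (10th to 90th percentile) and the thin line over all cells. EP1 cells, at a median of 10137, lie below those of EP2 and EP3 and beside those of ACNT1, at 10278.

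The marker windows of EP1 were those of ependymal cells. A window is the set of peaks within 1 kb of a gene's annotated start, or of either end of the gene where the promoter table has no start for it, as for Foxj1. Foxj1, the regulator of motile cilia, had 250 CPM in EP1 (95% interval 229 to 272), 235 in EP2 (224 to 246) and 282 in EP3 (262 to 302), against 94.6 in the classes not named EP (84.9 to 105). Tekt4 had 82.3 CPM in EP1 (70.4 to 95.6), 100.2 in EP2 (93.2 to 108) and 113 in EP3, against 24.3 in the classes not named EP (19.6 to 29.8). Ccdc153 had 71.8 CPM in EP1 (60.7 to 84.4), 74.9 in EP2 and 88.5 in EP3, against 6.14 in the classes not named EP (3.89 to 9.22). Each of the 3 genes was thus open at a similar level in EP1 and EP2, with EP3 the highest, and the intervals of EP1 did not overlap those of the classes not named EP. No cut site at Ccdc153 was found in ACNT1 or VEC, where the intervals reach up to 6.24 and 16.2 CPM. Intervals here are exact Poisson intervals on fragments and cover counting error only.

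In the bulk RNA, the 3 genes were all above the median of about 330 normalised counts per gene. Foxj1 read 2708 and 3055 in the 2 libraries, Tekt4 2138 and 2089 and Ccdc153 22994 and 24154.

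Summed over 8 ependymal markers, EP1 had 633 CPM, EP2 627 and EP3 760, against 112 to 225 in the other 5 classes. The defining markers of those classes were low in EP1 without being absent. The 6 astrocyte markers with a peak (of 8) summed to 198 CPM in EP1, 229 in EP2 and 224 in EP3, against 689 in ACNT1 and 591 in ACNT2. Gja1, a gap junction gene that ependymal cells also use, gave 75.9 of those CPM in EP1, 80.02 in EP2 and 75.4 in EP3. Oligodendrocyte progenitor markers summed to 32.0 CPM in EP1, against 260 in OPC, 285 in ACNT1 and 235 in ACNT2, and Olig2 and Neu4 were at 0 in EP1. Endothelial markers summed to 41.5 CPM in EP1, against 519 in VEC, with Tie1 and Cdh5 at 0. EP1 thus carried the markers of its label in sum, in cells that the authors classed on the same data. Whether EP1 differs from EP2 and EP3 as a state of the cells or in their depth and quality was not tested.

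**Figure D2:**
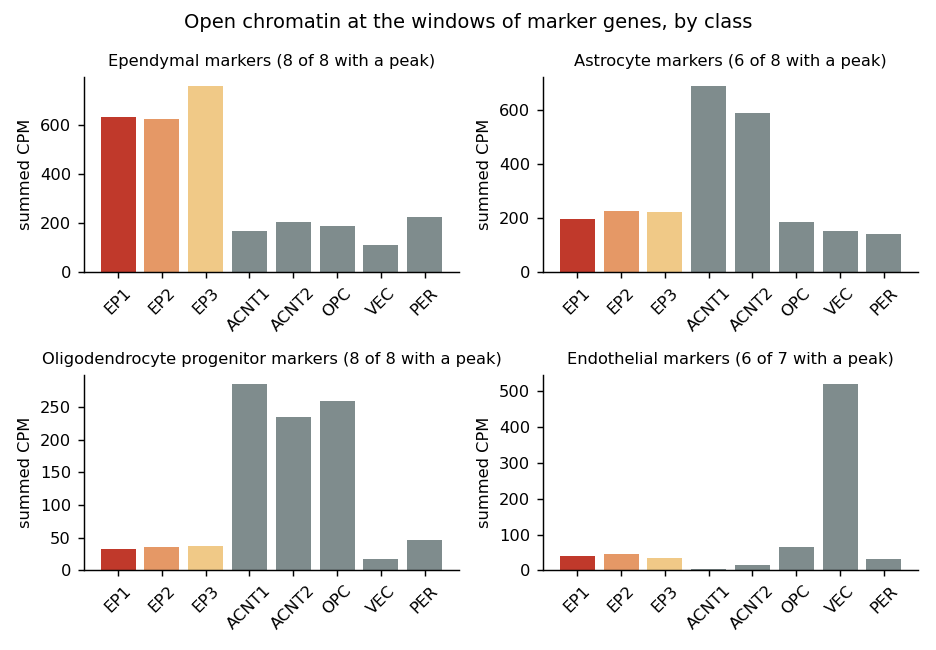
Summed CPM at the windows of 4 marker lists, one bar per class and each axis starting at 0. The ependymal markers read 633 CPM in EP1, near EP2 (627) and below EP3 (760), while the astrocyte markers read 198 CPM in EP1, against 689 in ACNT1.

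Single EP1 cells showed the markers less evenly. A cut at Foxj1 was seen in 160 of 301 EP1 cells (53.2%, exact Clopper-Pearson 95% interval 47.3 to 58.9), in 96.6% of EP2 cells and 90.8% of EP3 cells. After each cell was thinned to 5000 cut sites, which left out 79 EP1 cells, 0 EP2 cells and 4 EP3 cells, Foxj1 was cut in 50.9% of EP1 cells (44.1 to 57.7), 66.2% of EP2 cells (60.4 to 71.6) and 71.7% of EP3 cells (64.0 to 78.5), against 27.8% in ACNT1 and 12.1% in VEC. At that depth Ccdc153 was cut in 16.7% of EP1 cells (12.01 to 22.2), 29.3% of EP2 cells (24.1 to 34.9) and 34.6% of EP3 cells, against 0 of 90 cells in ACNT1, which allows a share of up to 3.33%. Tekt4 was cut in 25.7% of EP1 cells, 37.6% of EP2 cells and 35.2% of EP3 cells, against 5.56% in ACNT1. The EP1 share was below that of EP2 for all 3 genes, although the intervals of their summed CPM overlapped between these classes. No order of the classes is therefore read from the shares.

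Within EP1 the ependymal markers moved with depth. Split into 3 groups by depth, the shallowest 101 cells (1949 to 6234 cut sites) had 478 CPM at the 8 ependymal markers, the middle 100 cells 575 and the deepest 100 cells (15787 to 63401 cut sites) 678. Tekt4 did not follow that order, with 57.5, 96.6 and 80.1 CPM from the shallowest group to the deepest. Ccdc153 did, with 15.7, 52.5 and 87.6 CPM. The astrocyte markers ran opposite, with 238, 208 and 188 CPM. Of the 301 EP1 cells, 59 had no cut at any of the 8 ependymal windows and 37 had more astrocyte than ependymal marker cuts (12.3%, interval 8.80 to 16.5). Whether these cells belong with the rest of EP1 was not tested.

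Across the genome EP1 lay close to EP2 and EP3. Over the 70032 peaks with at least 50 cut sites in all cells, the log2 CPM of EP1 correlated with that of EP2 at r = 0.940 and EP3 at r = 0.911, against 0.470 to 0.571 for the other 5 classes. These values are across peaks, which are not independent and share 1 library, and they also depend on the depth of each class. A peak or window was counted as higher or lower where the ratio of CPM + 1 reached 2-fold. Against EP2, 898 peaks were higher in EP1 (1.28% of those tested) and 4607 lower (6.58%). Against EP3, 5163 were higher (7.37%) and 4184 lower (5.97%), a balance that turned to 5972 and 8533 without the cells of uneven chromosomes. Most of these peaks were thinly covered: of the 8937 peaks with at least 1000 cut sites, 99.8% were within 2-fold between EP1 and EP2 and 99.1% between EP1 and EP3. With the classes scaled by the median of ratios in place of total cut sites, the counts were 1554 higher and 3867 lower against EP2, and 6482 higher and 3828 lower against EP3.

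**Figure D3:**
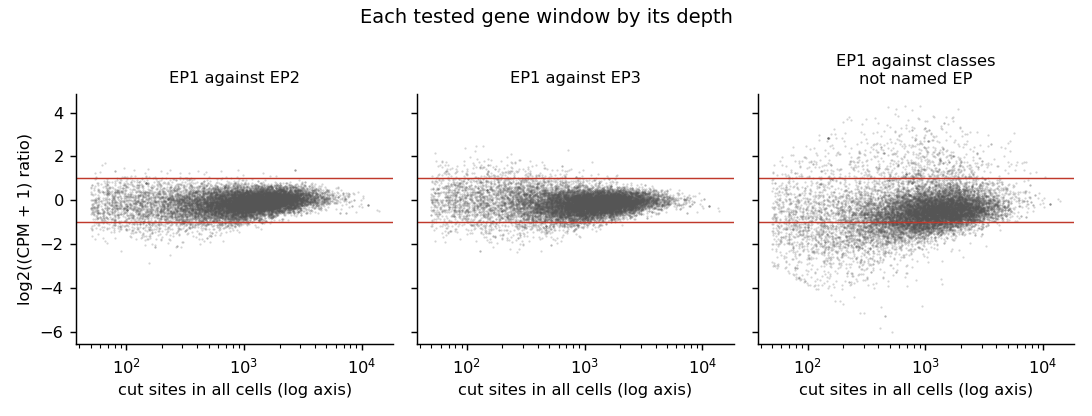
Each of 14031 tested gene windows by its cut sites in all cells (log axis) and the log2 ratio of EP1 over EP2, EP3 and the classes not named EP; the red lines mark 2-fold. The points narrow toward 0 with depth against EP2 and EP3, where 99.6% and 99.4% of the windows with at least 1000 cut sites were within 2-fold, and 85.2% were against the classes not named EP.

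Of the 14031 gene windows tested, 55 were at least 2-fold higher in EP1 than in EP2 (0.392%) and 442 lower (3.15%). Median-of-ratios scaling gave 104 and 296. Among cells of 10000 to 30000 cut sites (133 in EP1, 51 in EP2), 694 were higher and 824 lower. That range was chosen after the data were seen. These cells also sum to fewer cut sites, 2398301 in EP1 and 1227358 in EP2. The cause of the larger counts was not tested. Among windows with at least 200 cut sites, that of Slitrk1, a neuronal membrane protein gene, had the highest ratio. It had 50.5 CPM in EP1 (41.4 to 61.0), 18.5 in EP2 (15.6 to 21.7) and 19.7 in EP3 (14.8 to 25.7), against 40.5 in the classes not named EP. Cox7c, a subunit of cytochrome c oxidase, had 33.7 CPM in EP1 (26.4 to 42.4), 12.7 in EP2 (10.3 to 15.5) and 15.5 in EP3. Alkbh8, a tRNA modification enzyme, had 26.9 CPM in EP1 (20.3 to 35.0), 10.5 in EP2 (8.33 to 12.99) and 13.9 in EP3. In these 3 windows EP2 and EP3 were at similar levels. Their levels in EP1 were not particular to it. Slitrk1 had 88.5 CPM in OPC. Cox7c had 30.2 CPM in the classes not named EP together and 50.4 in VEC. Alkbh8 had 17.5 CPM in those classes together and 26.3 in VEC, there from 12 cut sites. All 3 windows were picked for their ratio to EP2. Ugt1a1, Ugt1a6b and Mroh2a share 1 peak of 59045 bases at 124 CPM in EP1, 46.5 in EP2 and 118 in EP3, so there EP2 was the low class.

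Several windows high in EP1 against EP2 were higher still outside the ependymal classes. Zic1, a transcription factor of the dorsal cord, had 5.82 CPM in EP1 (3.01 to 10.2) from 6 cells and 1.70 in EP2 (0.930 to 2.85), against 46.4 in the classes not named EP. Gria2, a glutamate receptor subunit, had 11.2 CPM in EP1, 4.06 in EP2 and 5.11 in EP3, against 28.3 in the classes not named EP. Ndp, the secreted ligand norrin, had 10.7 CPM in EP1, 3.53 in EP2 and 3.10 in EP3, against 16.7. Gm12695 went the other way, with 17.0 CPM in EP1, 6.48 in EP2 and 9.49 in EP3, against 0.273 in the classes not named EP. The summed astrocyte markers were 198 CPM in EP1 and 229 in EP2, and the oligodendrocyte progenitor markers 32.0 in EP1 and 36.2 in EP2. Mature oligodendrocyte, endothelial, pericyte, fibroblast and microglial markers were also lower in EP1 than in EP2. Neuron markers were higher, at 53.1 CPM in EP1 and 47.4 in EP2. So were Schwann cell markers (80.1 and 63.5) and those of cerebrospinal fluid contacting neurons (152 and 141). The part of other cell types in these windows was not tested.

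The windows lowest in EP1 against EP2 had few cut sites in EP1. Ogdhl and Sec31b had 0.971 CPM each in EP1, from 4 cut sites, and 7.66 each in EP2. The astrocyte gene Agt, angiotensinogen, had 0.485 CPM in EP1 (0.0123 to 2.70), 4.91 in EP2 (3.49 to 6.71) and 6.39 in EP3, against 42.3 in the classes not named EP. Olig2, the oligodendrocyte lineage factor and a name carried by the titles of other samples of the series, had no cut site at its start in any of the 301 EP1 cells, with an interval up to 1.79 CPM. It had 2.75 CPM in EP2 (1.72 to 4.16) from 17 cells and 2.19 in EP3, against 63.3 in the classes not named EP (55.6 to 71.8). The intervals of EP1 and EP2 overlap at Olig2, and that of EP1 lies below that of the classes not named EP. The bulk RNA listed it at 4.50 and 4.40 normalised counts.

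Against EP3, 224 windows were at least 2-fold higher in EP1 (1.6%) and 439 lower (3.13%), or 307 and 362 with median-of-ratios scaling and 747 and 714 among cells of 10000 to 30000 cut sites. The highest ratio was at Elobl, an elongin B-like gene, with 27.2 CPM in EP1 (20.5 to 35.3), 37.4 in EP2 (33.2 to 42.0) and 4.75 in EP3 (2.53 to 8.12). Cd44, the hyaluronan receptor, had 15.5 CPM in EP1 (10.6 to 21.9), 11.9 in EP2 (9.60 to 14.6) and 3.83 in EP3 (1.91 to 6.86). Osmr, the oncostatin M receptor, had 10.2 CPM in EP1 (6.46 to 15.3), 6.94 in EP2 and 2.37 in EP3 (0.954 to 4.89). Both belong to the injury and gliosis list, of whose 22 tested windows they were the 2 higher in EP1 than in EP3. Against the classes not named EP that list had 2 windows higher, Atf3 and Lgals3, and 3 lower (4 and 2 with median-of-ratios scaling). Those shares, 9.09% and 13.6%, stand beside 5.93% higher and 22.3% lower over all windows. At Elobl, Cd44 and Osmr, EP2 was nearer to EP1 and EP3 was low. In the bulk RNA Cd44 read 3.90 in both libraries and Osmr 0.800 and 4.40, far under the median of about 330 over all genes with a tested window.

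Lower in EP1 than in EP3 were Jag2, a Notch ligand, and Trp73, the p73 regulator of multiciliated cells. Jag2 had 9.71 CPM in EP1 (5.93 to 14.99), 16.7 in EP2 (13.9 to 19.8) and 40.3 in EP3 (33.2 to 48.5), against 9.69 in the classes not named EP. Trp73 had 3.64 CPM in EP1 (1.57 to 7.17) and 7.92 in EP2 (6.14 to 10.1), with 17.3 in EP3 (12.95 to 22.7). Poll and Dpcd share 1 window, at 4.85 CPM in EP1, 17.0 in EP2 and 22.8 in EP3.

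Single peaks away from transcription starts showed the contrast with EP3 too (mm10, coordinates as in the authors' peak list). At chr6:7322560-7324089, in no annotated gene, EP1 had 20.1 CPM (14.6 to 27.1), EP2 9.16 (7.19 to 11.5) and EP3 1.83 (0.670 to 3.97), against 0.273 in the classes not named EP. At chr7:78405274-78406471, inside Ntrk3, a neurotrophin receptor gene, EP1 had 23.8 CPM (17.7 to 31.3), EP2 14.9 (12.3 to 17.8) and EP3 2.74 (1.18 to 5.39). At chr12:89882343-89883148, inside the neurexin gene Nrxn3, EP1 had 16.5 CPM, EP2 10.2 and EP3 1.28. All 3 were picked from the highest ratios to EP3, so EP1 above EP3 was set by the choice. EP2 lay between the other classes named EP in each.

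EP3 was the high class at chr16:29775520-29776635, with 4.61 CPM in EP1 (2.21 to 8.48), 3.93 in EP2 and 45.1 in EP3 (37.6 to 53.7). At chr14:18716040-18717473, inside Ube2e2, EP1 had 4.61 CPM, EP2 1.77 and EP3 37.6. A peak in no gene at chr4:25815605-25816569 separated EP1 from EP2 instead, at 15.8 CPM in EP1 (10.9 to 22.1), 3.47 in EP2 (2.30 to 5.01) and 29.4 in EP3. These peaks were likewise picked for their ratios to EP3 or EP2.

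Against the classes not named EP the differences were wide. Of the peaks tested, 19257 were higher in EP1 (27.5%) and 14627 lower (20.9%), or 24625 and 8903 with median-of-ratios scaling. The higher ones lay away from transcription starts: 5.09% of them were within 1 kb of a protein-coding start (exact 95% interval 4.79 to 5.41), against 21.9% of the lower peaks and 19.7% of all peaks tested. Over all peaks, those at starts held 44.6% of the cut sites in EP1 and 44.7% in EP2, with 47.1% in EP3, against 52.7% to 64.6% in the other classes.

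The peak with the highest ratio among those with at least 200 cut sites, at chr3:82635028-82637537 in no annotated gene, had 77.6 CPM in EP1 (66.1 to 90.6), 44.7 in EP2 (40.1 to 49.6) and 51.5 in EP3 (43.4 to 60.7), and not one cut site in the 330 cells of the other classes. The interval of those classes reaches up to 1.01 CPM there. A peak inside Frmd5 at chr2:121716841-121720422 had 73.8 CPM in EP1, 61.2 in EP2 and 69.4 in EP3, against 0.273 in the classes not named EP. At chr6:142045284-142046626, in no gene, EP1 had 59.4 CPM (49.4 to 70.9), EP2 28.8 (25.1 to 32.8) and EP3 39.8, against 0.273. A peak inside Capn2 at chr1:182483304-182484644 was the opposite case, with no cut site in EP1 (interval up to 1.79 CPM) or EP3 and 0.458 CPM in EP2, against 82.5 in the classes not named EP.

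Of the gene windows, 832 were higher in EP1 than in the classes not named EP (5.93%) and 3122 lower (22.3%). This split depended on the scaling: the median of ratios moved every EP1 ratio in this comparison up by 0.51 on the log2 scale, close to the median of all windows (-0.50), and gave 1442 higher and 1334 lower. The counts by gene list are given below with total cut sites first and with that scaling after it. They are to be read beside these counts over all 14031 windows.

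In the lists, genes named beyond those of the fixed rule were chosen after their values were seen. Regulators of motile cilia were open in EP1 in part. Of 16 tested windows 6 were higher than in the classes not named EP and 2, Trp73 and E2f4, lower (6 and 0 with median-of-ratios scaling), with a median log2 ratio of 0.22, and none was past 2-fold against EP2. The 6 were Foxj1, Ccno, Deup1, Myb, Gmnc and Mcidas. Mcidas, the coactivator multicilin, had 21.4 CPM in EP1, 17.2 in EP2 and 18.8 in EP3, against 3.28 in the classes not named EP. Gmnc, which acts above multicilin, had 12.1 CPM in EP1, 8.70 in EP2 and 13.5 in EP3, against 1.91. Of the RFX genes, Rfx1 had 144 CPM in EP1, against 140 to 301 in the 5 classes not named EP, and Rfx4 had 129 CPM in EP1, against 0 in VEC, 19.1 in PER and 109 to 164 in the other 3. Rfx2 had 106 CPM in EP1, 83.5 in EP2 and 102 in EP3, against 99.9 in the classes not named EP. Rfx3 was lower in EP1, by less than 2-fold, with 77.4 CPM, 78.9 in EP2 and 82.9 in EP3, against 131.

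The parts of the axoneme were more open in EP1 than in the classes not named EP, and near their level in EP2 and EP3. Of 28 windows of axonemal dyneins and their assembly factors, 13 were higher than in the classes not named EP and 0 lower (15 and 0), with a median log2 ratio of 0.89, or 0.63 with every level under 3 fragments (6 cut sites) set to that floor, against -0.50 for all windows. Dnah9, an outer arm heavy chain, had 64.8 CPM in EP1, 69.9 in EP2 and 95.3 in EP3, against 18.8 in the classes not named EP. Dnah6, an inner arm heavy chain, had 92.9 CPM in EP1, 82.0 in EP2 and 80.1 in EP3, against 42.7. Of 40 windows of radial spoke, tektin and other axonemal genes, 27 were higher and 0 lower (30 and 0), with a median of 1.46. Spag16, of the central pair apparatus, had 41.5 CPM in EP1, 39.7 in EP2 and 36.9 in EP3, against 2.46. Pifo, the pitchfork gene of the ciliary base, had 29.8 CPM in EP1, 37.2 in EP2 and 34.9 in EP3, against 1.37. Of these 68 windows, 1 was past 2-fold against EP2: Tekt2, with 4.61 CPM in EP1 and 13.6 in EP2.

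Intraflagellar transport genes, which build all cilia and not only motile ones, showed a smaller shift. None of 32 windows was past 2-fold in either direction against the classes not named EP, beside 5.93% higher and 22.3% lower over all windows. With median-of-ratios scaling 3 were higher and 0 lower. Their median was -0.03, against -0.50 for all windows, or 0.46 against -0.01 with median-of-ratios scaling. The list thus lay above the background, by less than the axoneme lists. Bbs2, of the BBSome, had 97.3 CPM in EP1, 90.8 in EP2 and 87.3 in EP3, against 74.3.

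**Figure D4:**
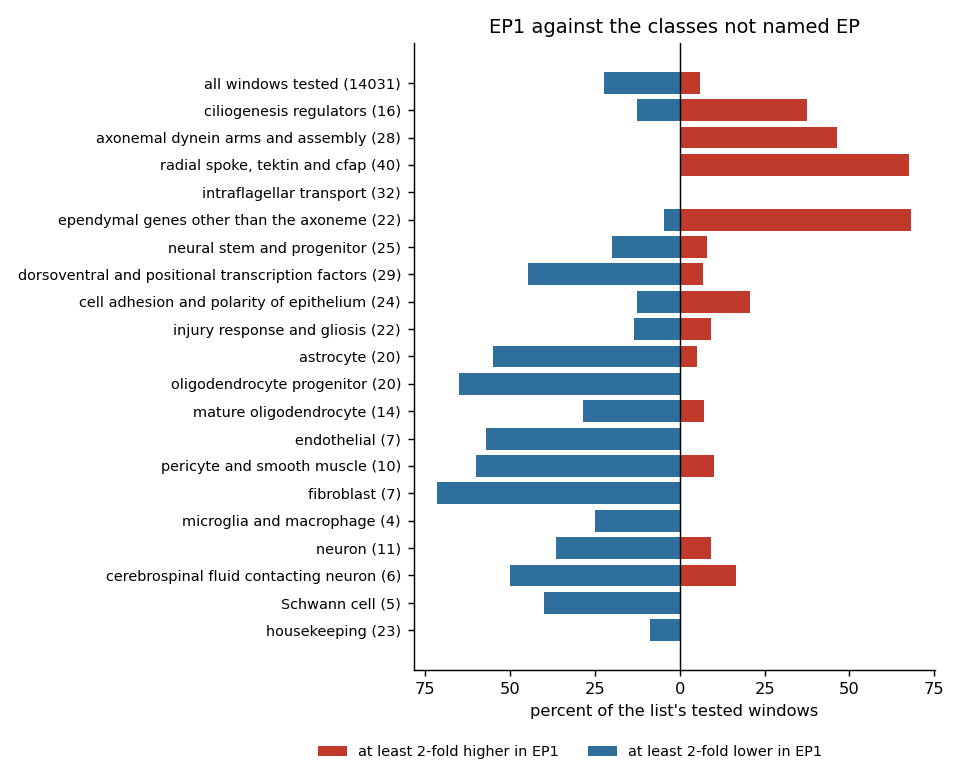
Percent of each list's tested windows (number in brackets) that were at least 2-fold higher (right, red) or lower (left, blue) in EP1 than in the classes not named EP, scaled to total cut sites. The axoneme and ependymal lists reach 46.4% to 68.2% higher, against 5.93% of all windows, and the intraflagellar transport list has 0 on both sides.

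Other ependymal genes had the highest list median, 2.10, with 15 of 22 windows higher and 1 lower (15 and 0). Cd24a, a surface glycoprotein used to sort ependymal cells, had 178 CPM in EP1 (160 to 197), 173 in EP2 and 202 in EP3, against 33.0 in the classes not named EP (27.4 to 39.5). Ak7, an adenylate kinase of cilia, had 59.2 CPM in EP1, 47.8 in EP2 and 61.0 in EP3, against 5.05. Among all windows with at least 200 cut sites the ratios were highest at Ccdc81, Dsc3, Akap14 and Pi15. Pi15, a peptidase inhibitor, had 96.6 CPM in EP1 (83.7 to 111), 66.9 in EP2 (61.3 to 73.0) and 77.8 in EP3, against 4.37 in the classes not named EP. Bhmt, betaine-homocysteine methyltransferase, had 42.5 CPM in EP1 (34.1 to 52.2), 32.7 in EP2 (28.8 to 37.0) and 15.3 in EP3 (11.1 to 20.7), against 1.502.

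Of 24 adhesion and polarity windows, 5 were higher and 3 lower (10 and 2). Those shares are 20.8% and 12.5%, beside 5.93% and 22.3% over all windows. Crb2, an apical polarity protein, had 214 CPM in EP1, 199 in EP2 and 198 in EP3, against 31.9 in the classes not named EP. Celsr1, a cadherin of planar cell polarity, had 119 CPM in EP1, 134 in EP2 and 141 in EP3, against 14.1.

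Of 25 neural stem and progenitor windows, 2 were higher, Vim and Prom1, and 5 lower, Id3, Hes5, Egfr, Msi1 and Nes (4 and 3 with median-of-ratios scaling). These shares are near those of all windows, 5.93% higher and 22.3% lower. Vim, the intermediate filament vimentin, had 248 CPM in EP1 (227 to 271), 192 in EP2 (182 to 202) and 170 in EP3 (155 to 187), against 51.3 in the classes not named EP. Vim was highest in EP1 of the 3, by less than 2-fold. Id3, an inhibitor of differentiation factors, had 3.64 CPM in EP1, 9.75 in EP2 and 7.12 in EP3, against 67.2. Hes5, a Notch effector, had 4.37 CPM in EP1, 10.2 in EP2 and 6.57 in EP3, against 40.5. Id3 and Hes5 were the 2 windows of the list past 2-fold against EP2, both lower, and 1 was with median-of-ratios scaling.

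Of 29 dorsoventral and positional transcription factors, 2 were higher and 13 lower (5 and 10). The higher share, 6.90%, is near the 5.93% of all windows, and the lower share is 44.8%, beside 22.3%. Nkx6-1, a factor of the ventral progenitor domains, had 226 CPM in EP1, 224 in EP2 and 222 in EP3, against 66.8 in the classes not named EP. Pax2 had 17.7 CPM in EP1 and 40.04 in EP2, with 30.1 in EP3, against 8.33. Nkx6-2 had 0.971 CPM in EP1 (4 cut sites), 5.82 in EP2 and 5.48 in EP3. Zic1 was the 1 window of this list at least 2-fold higher in EP1 than in EP2.

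Genes of other glia were low in EP1. Of 20 oligodendrocyte progenitor windows 13 were lower in EP1 than in the classes not named EP and 0 higher (11 and 1), with a median of -2.03 that did not change when the 3 windows at 0 were set to the floor. Bcan, the proteoglycan brevican, had 11.2 CPM in EP1, 14.4 in EP2 and 9.86 in EP3, against 143. Vcan, the related versican, was an exception at 84.2 CPM in EP1 (72.2 to 97.6), 49.7 in EP2 (44.8 to 54.9) and 46.5 in EP3 (38.8 to 55.3), against 72.8 (64.3 to 82.0), and bulk RNA read 0 and 1.00. Of 20 astrocyte windows 11 were lower and 1, Slc39a12, higher (6 and 3), and 2, Agt and Slc7a10, were past 2-fold against EP2, both lower. Slc7a10, an amino acid transporter of astrocytes, had 2.91 CPM in EP1, 7.46 in EP2 and 4.02 in EP3, against 109. Of 23 housekeeping windows 2 were lower and 0 higher (0 and 1).

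The remaining lists were small. In EP1 against the classes not named EP, 4 of 7 endothelial, 6 of 10 pericyte and smooth muscle, 5 of 7 fibroblast, 4 of 14 mature oligodendrocyte, 4 of 11 neuronal, 3 of 6 cerebrospinal fluid contacting neuron, 2 of 5 Schwann cell and 1 of 4 microglial windows were lower, with 0 or 1 higher in each, beside 22.3% lower and 5.93% higher over all windows. The mature oligodendrocyte and microglial shares are near that background. With median-of-ratios scaling the lower windows were 3, 4, 4, 3, 3, 2, 1 and 0 in the same order, and the endothelial and mature oligodendrocyte lists had 2 higher each.

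X-box letters were more frequent at promoters of genes with windows higher in EP1 than in the classes not named EP. Over the 300 bases around the start, 52 of 720 promoters of the genes higher in EP1 than in the classes not named EP held them (7.22%, exact 95% interval 5.44 to 9.36), against 1.46% of 3023 promoters of lower genes and 2.98% of all 13687 promoters with a peak (2.70 to 3.28). The higher promoters were poorer in G and C, with a median of 56.7%, against 61.3% of all. Below that overall median the share was 7.81% of 512 higher promoters, against 3.38% of all, and above it 5.77% of 208, against 2.59%. In the radial spoke, tektin and axonemal list 10 of 41 promoters held the letters (24.4%). In the intraflagellar transport list, with no window 2-fold higher in EP1 by total cut sites, 5 of 28 did (17.9%). In the astrocyte, oligodendrocyte progenitor and housekeeping lists 0 did. The FOX letters TGTTTAC were in 36 of the 720 higher promoters (5%), against 2.02% of the lower and 2.40% of all, and neither Tekt4 nor Ccdc153 held them in the 250 bases shown. The ETS letters CCGGAAG were in 6.39% of the higher promoters, against 16.8% of the lower and 16.5% of all. AP-1 letters, TGACTCA, were in 6.39% of the higher promoters, against 3.77% of the lower and 3.29% of all. SOX letters, AACAAAG, were in 5.83%, against 3.54% and 3.66%. A higher share was thus not particular to the X-box and FOX letters. A match is not evidence that a factor binds.

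Promoters of genes higher in EP1 than in EP3 held no X-box (0 of 203) and the E-box letters CAGCTG in 27.1% (21.1 to 33.8), against 15.3% of all. Promoters higher in EP1 than in EP2 held no X-box either (0 of 49, exact 95% interval up to 7.25%).

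Bulk RNA levels were set beside the window calls as a description. Genes with windows higher in EP1 than in the classes not named EP had medians of 570 and 571 normalised counts in the 2 libraries (704 of 832 genes measured), and the lower ones 128 and 131 (2630 of 3122), beside 330 and 331 over all 12599 genes. The genes with windows higher in EP1 than in EP2 had medians of 20.2 and 19.2 (40 of 55), and those higher than in EP3 16.1 and 14.4 (169 of 224). The genes with windows lower in EP1 had higher medians, 88.2 and 89.6 for those lower than in EP2 (332 of 442) and 137 and 152 for those lower than in EP3 (357 of 439). The bulk cells were a mixture of ependymal classes in unknown shares, and in bulk fewer cells of a type and less RNA per cell cannot be told apart.

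EP1 cells also spread their cut sites unevenly over the chromosomes. For each cell, the share of its cut sites on each of 20 chromosomes was set against the mean of its class, and the largest deviation was kept. With every cell thinned to 5000 cut sites, the median of this largest deviation was 58.3% of the class mean in EP1 (222 cells), 23.0% in EP2 (290 cells) and 34.5% in EP3 (159 cells), against 37.9% in ACNT1 and 18.7% to 28.8% in the other 4 classes. A deviation above 50% was found in 61.7% of these EP1 cells, 5.17% of EP2 cells and 23.9% of EP3 cells, against 32.2% in ACNT1. Among cells of 10000 to 20000 cut sites, not thinned, the median was 61.4% in 83 EP1 cells, 21.3% in 13 EP2 cells and 48.2% in 38 EP3 cells, against 29.2% in 50 ACNT1 cells.

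The unevenness ran along whole chromosomes. In 10 Mb bins of the autosomes, over cells of 10000 to 30000 cut sites, the deviations of neighbouring bins correlated across the 133 EP1 cells at a mean r of 0.59, and bins 80 Mb apart on 1 chromosome at 0.39. Bins on different chromosomes gave -0.03. The same values in 51 EP2 cells were 0.47, 0.35 and -0.02, in 67 EP3 cells 0.54, 0.40 and -0.03, and in 56 ACNT1 cells 0.34, 0.18 and -0.01. In 21 PER cells they were 0.33, 0.28 and -0.02, and neighbouring bins gave 0.16 to 0.20 in ACNT2, OPC and VEC. The correlation along chromosomes was thus seen in all 3 classes named EP and was not particular to EP1. These values describe bins of the same cells. EP1 is also the shallowest of the 3 classes named EP, and the part of depth beyond the matched values above was not tested.

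**Figure D5:**
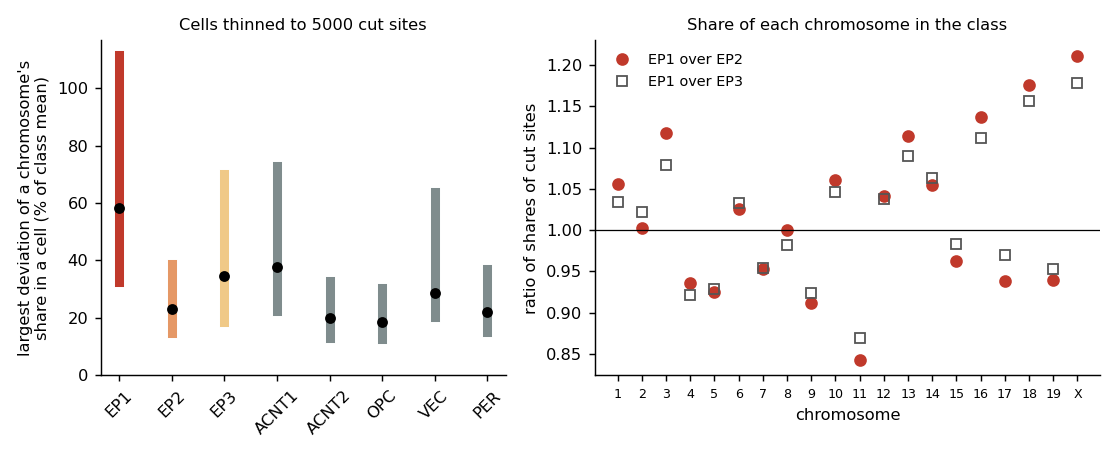
Left, the largest deviation of any chromosome's share of cut sites in a cell, as a percent of its class mean, after thinning to 5000 cut sites; dots are medians and bars run from the 10th to the 90th percentile of cells. Right, the share of each chromosome in the summed cut sites of EP1 over that in EP2 (filled) and EP3 (open), from 0.842 on chromosome 11 to 1.21 on X.

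Summed over cells, the classes also differed in the share of each chromosome. The deviations above were taken from each class's own mean, so this difference between classes is a separate measure. Whether the 2 are related was not tested. Chromosome X held 2.02% of the cut sites in EP1, 1.67% in EP2 and 1.72% in EP3. Chromosome 18 held 3.65% in EP1, 3.11% in EP2 and 3.16% in EP3, and chromosome 16 held 3.69% in EP1, 3.25% in EP2 and 3.32% in EP3. Chromosome 11 was at the other end, with 6.72% in EP1, 7.98% in EP2 and 7.72% in EP3. The median log2 ratio of EP1 over EP2 was 0.23 for the 446 windows on X and -0.37 for the 1134 on chromosome 11, where 7.05% of windows were counted lower than in EP2, against 0.448% on X. Foxj1 lies on chromosome 11. Promoter G and C content did not move with the EP1 over EP2 ratio (r = 0.02 across 11181 windows). That value compares single promoters and does not measure the base composition or gene density of a whole chromosome. The part of these in the imbalance between chromosomes was not tested. Scaling within each chromosome, chosen after the unevenness was seen, left 48 windows higher and 369 lower than in EP2, beside 55 and 442, and 801 higher and 2966 lower than in the classes not named EP, beside 832 and 3122.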

How the data were processed

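Single-cell ATAC-seq cut sites were measured in 1 library of 1084 cells and 96670 peaks. The authors deposited whole-number counts of cut sites per peak and cell, and 89.9% of the matrix entries are even, since a fragment adds a pair of cuts. The authors' cell table gives the class of each cell, the percent of fragments in peaks, the enrichment ratio at transcription starts, the blacklist fraction and a nucleosome signal score. Bulk RNA values are normalised counts deposited by the authors, a signal whose scaling is not given in the sources used here. Per the submitters' processing notes the build was mm10 and the tools included Cell Ranger ATAC, Cell Ranger, Bowtie2, SAMtools and deepTools; no version or role is given. How the classes were made is not given in the sources used here, and no doublet caller was run. No barcode was listed more than once.

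Cut sites were summed per class and scaled to CPM, because classes differ in depth (456548 to 15283010 cut sites). Ratios are log2 of CPM with a pseudocount of 1, for peaks or windows with at least 50 cut sites over all cells. Of 21900 protein-coding genes, 14539 had a peak in their window and 14031 were tested. Of these, 2850 used both gene ends and 2795 share a peak with another gene. Poisson intervals take fragments as the unit. Floors are 3 fragments, or 6 cut sites, in a class. Promoters and names came from RefSeq (GRCm38.p6). With 1 library no test was run.

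Named genes were the 3 markers, the 10 highest and 10 lowest ratios among windows or peaks with at least 200 cut sites in each comparison, and the 4 members of each list with the most cut sites. The members, lists and comparisons were chosen with earlier results of these data known. The ratio scripts were tested on simulated data. Python 3.11.15, numpy 2.4.6, pandas 2.3.3, scipy 1.17.1 and matplotlib 3.10.9 were used. Alternatives were another scaling, pseudocount, minimum, fold, window, cell weight and depth.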

Additional observations from a re-analysis of the deposited data

How the results depend on the processing

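No paired analysis was possible because all cells came from 1 library. Comparisons of counts against ACNT1, ACNT2, OPC and VEC alone were planned and not run, and levels are given in their place. Of 600 list medians under the alternatives, 80 had the other sign than the value reported, all of them within 0.60 of 0 as reported. The balance of higher and lower counts turned round in 3 cases: windows against the classes not named EP with median-of-ratios scaling, windows against EP3 in cells of 10000 to 30000 cut sites, and peaks against EP3 without uneven cells (5972 and 8533). In the following, counts higher in EP1 come before counts lower in EP1.

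Against EP2 (898 and 4607 peaks, 55 and 442 windows), median-of-ratios scaling gave 1554 higher peaks and 104 higher windows. A pseudocount of 5 CPM gave 20 and 87 peaks and 9 and 41 windows. A 4-fold threshold gave 4 and 136 peaks and 0 and 11 windows. Equal weight for each cell gave 2729 and 7971 peaks and 281 and 961 windows. Thinning to 5000 cut sites gave 5174 and 9504 peaks and 383 and 1033 windows. No minimum gave 1389 higher peaks, and leaving out the deepest 10% of cells 1667 higher peaks and 130 higher windows.

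Against EP3 (5163 and 4184 peaks, 224 and 439 windows), a pseudocount of 5 CPM gave 598 and 438 peaks and 38 and 85 windows. A 4-fold threshold gave 265 and 226 peaks and 7 and 10 windows. Equal weight gave 7817 and 6514 peaks and 486 and 849 windows, and thinning 11842 and 8963 peaks and 697 and 1119 windows. Leaving out the deepest cells gave 374 higher windows.

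Against the classes not named EP (19257 and 14627 peaks, 832 and 3122 windows), median-of-ratios scaling gave 8903 lower peaks and 1442 and 1334 windows. A pseudocount of 5 CPM gave 9717 and 6500 peaks and 2000 lower windows. A 4-fold threshold gave 8046 and 4321 peaks and 288 and 585 windows, and all peaks over the gene and 2 kb around it 1309 higher windows. With no minimum the peaks were 21508 and 20069.

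Alternatives chosen after seeing the data were cells of 10000 to 30000 cut sites, cells with no chromosome over 50% from its class mean, and scaling within each chromosome. The depth range gave 8444 and 8456 peaks and 694 and 824 windows against EP2, and 11924 and 6959 peaks and 747 and 714 windows against EP3. Leaving out uneven cells, 213 of them in EP1, gave 1640 and 9443 peaks and 84 and 863 windows against EP2, and 8533 lower peaks and 877 lower windows against EP3. Scaling within each chromosome moved no count by over 1.5 times. Of the other values, 341 levels of named genes stayed within their spread and 51 moved, and 568 list medians stayed and 32 moved. The share of promoters with an X-box in the middle 200 bases was 4.86% for genes higher in EP1 than in the classes not named EP and 2.14% for all. Fewer cells enter the thinned and depth-matched counts, and the cause of their size was not tested.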
